A study of Mus musculus with 9 samples.

Results

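The androgen and estrogen conversion and response genes Cyp19a1, Srd5a1, Akr1c14, Sult1e1 and Esr1, were followed across the cell types of the mouse testis. They were chosen by name as steps of 1 pathway, and all 5 were found among the 32285 genes in the files. Their unique molecular identifiers (UMIs, each counting 1 captured transcript) were summed over the cells of 1 type in 1 mouse, and a level is given as counts per 1000000 UMIs of that sum (CPM). The study made 10x 3′ single cell RNA libraries from whole testes of C57BL/6 mice at post-natal day (PND) 24, with 1 library for each of 9 mice: 4 Control, 2 NELF-B cKO and 3 TDP-43 cKO mice. In each cKO mouse, 1 allele of the gene was floxed and the other null, and Stra8-iCre, a recombinase active from spermatogonia (SG) on, was used to delete the floxed part in germ cells, of which some escape the deletion by the study's account. The floxed part is exons 1 to 4 in Nelfb and exon 3 in Tardbp. Somatic cells of the cKO mice therefore kept 1 floxed allele beside the null allele. The Control mice were littermates or non-littermates of the cKO mice. NELF-B is a subunit of the complex that holds RNA polymerase II shortly after its start, and TDP-43, the product of Tardbp, binds RNA and DNA.

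Androgens are made from cholesterol in Leydig cells and act on Sertoli, peritubular and Leydig cells. The 5α-reductase Srd5a1 reduces testosterone to dihydrotestosterone, and Akr1c14, a 3α-hydroxysteroid dehydrogenase, converts dihydrotestosterone to androstanediol, so that androstanediol is a main androgen of the immature rodent testis. Aromatase, the product of Cyp19a1, makes estrogens from androgens, and its expression in germ cells as well as in somatic cells of the testis is known. The estrogen sulfotransferase Sult1e1 inactivates estrogens, and Esr1 encodes estrogen receptor α.

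Coordinates are those of the GRCm38 build with the GENCODE M21 annotation. Cyp19a1 lies on chr9:54165937-54268110 on the minus strand, Srd5a1 on chr13:69573449-69611442 on the minus strand, Akr1c14 on chr13:4049011-4090688 on the plus strand, Sult1e1 on chr5:87575969-87591594 on the minus strand and Esr1 on chr10:4611593-5005614 on the plus strand. Srd5a1 overlaps Nsun2 on the opposite strand and Gm17108 on its own strand, and both are in the files, so its counts depend on how reads there were assigned. RefSeq (GRCm38.p6) gave 8 promoters for the 5 genes, each from 250 bases before to 50 bases after a transcription start. Cyp19a1 has 3 of them, and both that hold the core of the MYB motif are shown because Mybl1, a MYB factor, is a marker of the pachytene cells in which Cyp19a1 was highest. The promoter of Sult1e1 is shown because it alone of the 8 holds the nuclear receptor half-site that was searched. Capitals mark the matches to the MYB core CAGTTG, to the motif TATAAA of the TATA box and to the nuclear receptor half-site AAGGTCA, read on either strand, and each sequence runs 5′ to 3′ on the strand of the gene.
Cyp19a1, chr9:54228865-54229164, minus strand: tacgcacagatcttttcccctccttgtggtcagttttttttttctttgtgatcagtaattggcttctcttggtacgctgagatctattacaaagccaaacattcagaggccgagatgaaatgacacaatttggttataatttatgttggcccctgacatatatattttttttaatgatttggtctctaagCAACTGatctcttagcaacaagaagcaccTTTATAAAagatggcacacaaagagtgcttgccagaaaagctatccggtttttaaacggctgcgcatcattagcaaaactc
Cyp19a1, chr9:54268115-54268414, minus strand: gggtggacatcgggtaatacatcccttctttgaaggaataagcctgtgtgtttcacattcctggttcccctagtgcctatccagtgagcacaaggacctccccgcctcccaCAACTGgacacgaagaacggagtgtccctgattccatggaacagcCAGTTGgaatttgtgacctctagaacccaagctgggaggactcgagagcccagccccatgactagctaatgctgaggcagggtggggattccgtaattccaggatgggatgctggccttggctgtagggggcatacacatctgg
Sult1e1, chr5:87591562-87591861, minus strand: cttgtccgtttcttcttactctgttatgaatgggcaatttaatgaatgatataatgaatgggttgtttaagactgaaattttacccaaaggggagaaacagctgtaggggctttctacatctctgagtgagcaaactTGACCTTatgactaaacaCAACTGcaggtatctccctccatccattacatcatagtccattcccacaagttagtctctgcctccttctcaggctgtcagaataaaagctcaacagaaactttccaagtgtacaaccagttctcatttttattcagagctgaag

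The first Cyp19a1 promoter holds TATAAA on the opposite strand at -31 and, overlapping it on the strand of the gene, at -29 bases from the start, and CAGTTG at -60. The second holds CAGTTG at -139 and -94, and the third Cyp19a1 promoter, at chr9:54193694-54193993, holds TATAAA at -157 and -143. The Sult1e1 promoter holds AAGGTCA at -113 and CAGTTG at -95. None of the promoters of Srd5a1, Akr1c14 and Esr1 holds a match to these motifs, to TGACGTC, a part of the cyclic AMP response element, or to the palindromic consensus of the estrogen response element. Of 32851 RefSeq promoters of the same length, 13.65% hold CAGTTG, 13.62% TATAAA, 4.718% AAGGTCA, 3.205% TGACGTC and 0.07001% the estrogen response element. A match describes letters only, and the 3′ UMIs do not show which start was used.

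The 9 libraries held 119203347 to 159407373 UMIs each. Of 45132 barcodes that passed the limits of over 1000 genes and of 10% mitochondrial UMIs, 25800 (57.2%) fell in 23 of 35 clusters that could be given a cell type, from 25.4% to 98.7% per mouse. The 2 largest clusters without a type held 9780 and 5300 barcodes, with medians of 1793 and 1546 UMIs, and 98.5% of the latter came from Control replicate 2. Barcodes found in more than 1 library numbered 260, of 44872 distinct barcodes. Cell types were rebuilt from marker genes, and each group of cells is named only by them: SG, early spermatocytes (SC) from preleptotene to zygotene, pachytene SC (P SC), diplotene SC (D SC), round spermatids (RS), Sertoli, Leydig, interstitial, myoid, endothelial, macrophage and MHC class II immune cells. A further cluster of 927 cells held markers of both P SC and D SC. It is called late SC and is not among the 25800. The preparation minced, washed and digested the tubules, which can change the number of interstitial cells, so numbers of cells are not compared.

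Nelfb was lower in the SG and SC but not in the RS of NELF-B cKO mice. Tardbp was lower in the SG, early SC and Sertoli cells but near Control in the P SC of TDP-43 cKO mice. In SG, Nelfb measured 65.8 to 78.1 CPM in the 4 Control mice and 4.89 and 5.29 CPM in the NELF-B cKO mice, with a log2 fold change of -3.81 (edgeR adjusted p = 5.99e-06), and in P SC it fell by 3.32 on the log2 scale. In RS it measured 28.8, 9.95, 13.2 and 8.32 CPM in Control and 34.7 CPM in NELF-B cKO replicate 1, above every Control mouse (log2 fold change 1.25, edgeR adjusted p = 1.000), so the RS of this mouse go against their label. In Leydig cells, Nelfb measured 18.8 to 29.8 CPM in Control and 8.998 and 11.1 CPM in NELF-B cKO mice (log2 fold change -1.25, edgeR adjusted p = 0.371). Tardbp in SG measured 67.9 to 90.4 CPM in Control and 31.6 to 37.0 CPM in TDP-43 cKO mice (log2 fold change -1.15, edgeR adjusted p = 0.048). Its log2 fold change was -1.52 in early SC (edgeR adjusted p = 0.00801) and -0.43 in the somatic Sertoli cells (edgeR adjusted p = 0.0338). Tardbp in P SC measured 148 to 164 CPM in Control and 137 and 140 CPM in TDP-43 cKO mice, and 3′ UMIs outside the deleted exon do not show whether it was removed.

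In the Control mice, Cyp19a1 was highest in P SC and next in late SC. Srd5a1, Sult1e1 and Esr1 were highest in Leydig cells, and Akr1c14 in endothelial cells with Leydig cells next.

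**Figure D1:**
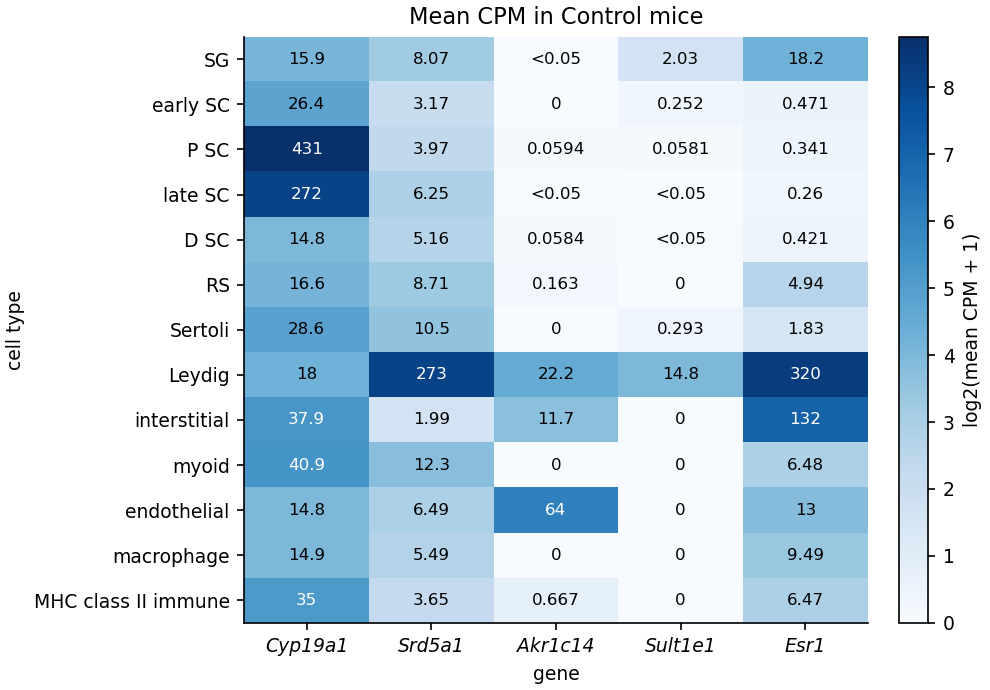
Mean level (CPM) of the 5 members in each cell type over the Control mice with at least 10 cells of the type, with the mean printed in each cell and the colour on a log2(CPM + 1) scale. Cyp19a1 reads 431 in P SC and 272 in late SC, while Srd5a1, Sult1e1 and Esr1 have their highest values in the Leydig row.

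In Control mice, Cyp19a1 measured 431 ± 42.0 CPM in P SC (SD, n = 4) and 272 ± 33.0 CPM in late SC, and the ranges of these 2 types did not overlap. The other 11 cell types had means from 14.8 to 40.9 CPM, and neighbours in that order overlapped in range throughout. Barcodes of under 100 UMIs, which hold mostly RNA free in the suspension, carried 76.5, 198, 93.0 and 114 CPM of Cyp19a1 in Control replicates 1 to 4. Of the 91 values of single mice in the 11 cell types outside P SC and late SC, 90 were at or under the level of such barcodes in the same mouse. The exception was the myoid sum of Control replicate 3, at 104 CPM. A cell holds only part of its UMIs from free RNA, and 37 of the 91 values were at or under the upper limit that free RNA could give, with 0 of 7 in D SC, 1 of 9 in interstitial, 3 of 9 in Leydig and 6 of 9 in SG. The level in P SC and late SC was above that of such barcodes in every mouse tested.

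In P SC, Cyp19a1 measured 375, 448, 474 and 428 CPM in the Control mice, 644 and 385 CPM in the NELF-B cKO mice, and 388 and 320 CPM in TDP-43 cKO replicates 2 and 3. TDP-43 cKO replicate 1 had 6 P SC, with 337 CPM, and was left out of the fit. One NELF-B cKO mouse was above all Control mice and the other within their range, and one TDP-43 cKO mouse was below all Control mice and the other within their range. The log2 fold change was 0.28 (SE 0.18, 95% interval -0.12 to 0.67) in NELF-B cKO and -0.30 (SE 0.18, 95% interval -0.70 to 0.10) in TDP-43 cKO mice, and neither passed the threshold of 0.05 (edgeR adjusted p = 0.577 and 0.497). Of all genes tested in P SC, 0.478% were called in NELF-B cKO and 0.0832% in TDP-43 cKO mice. Between the cKO groups the difference was -0.58 for TDP-43 against NELF-B (SE 0.21, 95% interval -1.04 to -0.12, edgeR adjusted p = 0.205). Without NELF-B cKO replicate 2, which had 41 P SC, the NELF-B log2 fold change was 0.59 (edgeR adjusted p = 0.0163), in a fit that called 10.6% of all genes tested, and without replicate 1 it was -0.16. Each of these fits has 1 NELF-B cKO mouse, whose spread is taken as that of the other groups.

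The P SC formed 2 clusters, with medians of 62480 and 21110 UMIs per cell. The cluster of more UMIs held 55.3% of the P SC of Control mice, 56.1% of those of NELF-B cKO and 37.1% of those of TDP-43 cKO mice. Within it, Cyp19a1 measured 473, 570, 525 and 517 CPM in Control, 686 and 488 CPM in NELF-B cKO, and 528 and 500 CPM in TDP-43 cKO replicates 2 and 3. Both TDP-43 cKO mice and NELF-B cKO replicate 2 thus lay within the Control range there, and NELF-B cKO replicate 1 above it. In the cluster of fewer UMIs, Cyp19a1 measured 155, 171, 182 and 178 CPM in Control, 108 and 251 CPM in NELF-B cKO and 169 and 108 CPM in TDP-43 cKO replicates 2 and 3. The NELF-B cKO cells there differed in depth from the others, with a median of 2135 UMIs in the 74 cells of replicate 1 and 54725 UMIs in the 24 cells of replicate 2, against 21955 UMIs in Control and 26640 UMIs in TDP-43 cKO mice. Fitted in the cluster of more UMIs alone, the log2 fold change was 0.19 in NELF-B cKO and -0.02 in TDP-43 cKO mice (edgeR adjusted p = 0.396 and 0.991). The difference of 37.1% from 55.3% in the share of that cluster moved with the TDP-43 cKO level over both clusters, and its part in that level was not tested. Without the cKO P SC in which a Tardbp or Nelfb UMI was found, the TDP-43 cKO log2 fold change was -1.33 (edgeR adjusted p = 0.113). That left 17 of 143 and 15 of 118 cells in TDP-43 cKO replicates 2 and 3, with medians of 2030 and 3735 UMIs against 40313 and 37065 UMIs before the removal.

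**Figure D2:**
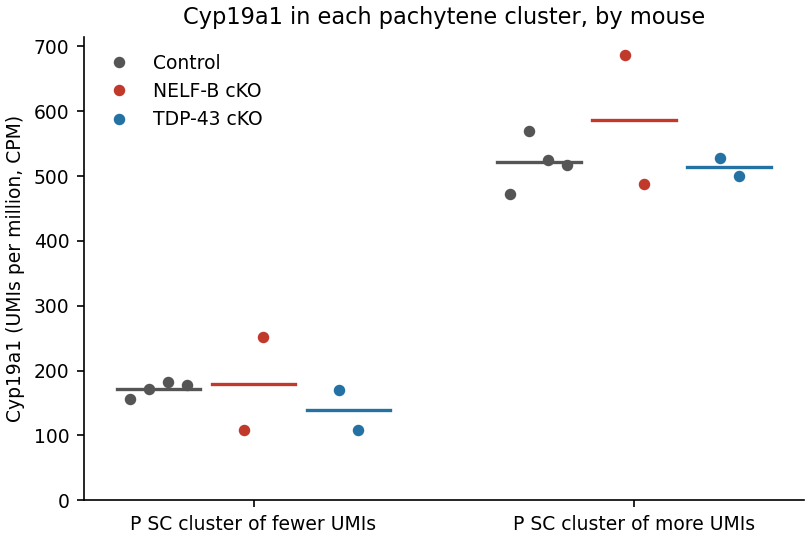
Cyp19a1 (CPM of summed UMIs) in each of the 2 P SC clusters, with 1 point per mouse of at least 10 cells and a line at the group mean. In the cluster of more UMIs the TDP-43 cKO points, 528 and 500, lie within the Control range of 473 to 570, and in the cluster of fewer UMIs all points lie between 108 and 251.

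In late SC, Cyp19a1 measured 237, 278, 315 and 260 CPM in Control, 323 CPM in NELF-B cKO replicate 1, and 377 and 309 CPM in TDP-43 cKO replicates 2 and 3. The 1 NELF-B cKO mouse was above the Control range, and of the TDP-43 cKO mice 1 was above and 1 within it. The log2 fold change was 0.21 (SE 0.13, edgeR adjusted p = 0.494) in NELF-B cKO, where the spread of the 1 mouse is taken as that of the other groups, and 0.29 (SE 0.10, edgeR adjusted p = 0.299) in TDP-43 cKO mice. In D SC, where meiotic prophase ends, Cyp19a1 measured 13.4, 18.2, 14.5 and 13.2 CPM in Control, 15.4 CPM in NELF-B cKO replicate 1 and 10.1 and 5.41 CPM in TDP-43 cKO replicates 2 and 3. Both TDP-43 cKO values lay under the Control range, and the log2 fold change of -0.89 (SE 0.34) did not pass (edgeR adjusted p = 0.844).

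The share of P SC with at least 1 Cyp19a1 UMI was 81.9% of 1554 Control cells, 76.2% of 223 NELF-B cKO cells and 67.0% of 267 TDP-43 cKO cells, with medians of 41760, 49830 and 39590 UMIs per cell. With each cell thinned to 2000 UMIs, and 61, 34 and 9 shallower cells left out, the shares were 46.6% (95% Wilson interval 44.0 to 49.1), 57.7% (50.5 to 64.5) and 37.2% (31.5 to 43.3). These intervals cover counting error only, since cells of 1 mouse are not replicates. By mouse, the thinned shares were 42.2% to 52.3% in Control, 58.1% and 56.1% in NELF-B cKO, where 182 of the 223 cells came from replicate 1, and 5 of 6 cells, 40.7% and 30.8% in TDP-43 cKO replicates 1 to 3. Leydig cells had shares of 19.5% in Control, 7.03% in NELF-B cKO and 1.21% in TDP-43 cKO mice before thinning. By mouse these were 16.0% to 23.9% in Control, 14.4% and 3.48% in NELF-B cKO, and 0.352%, 3.15% and 3.96% in TDP-43 cKO mice. After thinning the shares were 2.61% in Control and 1.37% in NELF-B cKO mice, where replicates 1 and 2 had 3.02% and 0.564%. In TDP-43 cKO replicates 1 to 3, 0 of 850, 0 of 127 and 0 of 177 thinned cells had a UMI, as did 0 of 50 in Control replicate 4. The median depths of the Leydig cells were 17090, 25030 and 25880 UMIs.

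**Figure D3:**
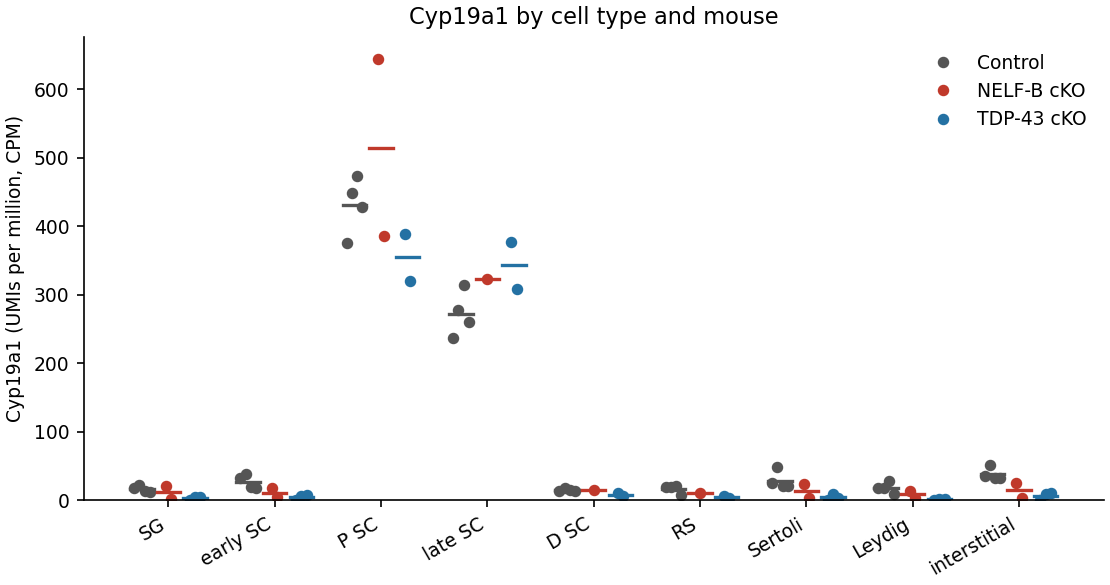
Cyp19a1 (CPM of summed UMIs) in 9 of the 13 cell types, with 1 point per mouse of at least 10 cells and a line at the group mean. P SC and late SC lie between 237 and 644, and every point of the other types plotted is at most 50.6.

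Of the other cell types tested, the Cyp19a1 level of the TDP-43 cKO mice was below the Control range in SG, early SC, D SC, RS, Sertoli, Leydig and interstitial cells, with no value called by edgeR. In early SC it measured 31.8, 37.9, 18.6 and 17.5 CPM in Control, 16.9 and 4.22 CPM in NELF-B cKO, and 0.256, 5.53 and 7.28 CPM in TDP-43 cKO mice. The TDP-43 cKO log2 fold change there was -2.54 (SE 0.71) with an edgeR adjusted p of 0.0522, the lowest of the members. In Leydig cells it measured 18.1, 17.7, 27.2 and 9.02 CPM in Control, 13.96 and 3.34 CPM in NELF-B cKO, and 0.103, 2.06 and 2.02 CPM in TDP-43 cKO mice, with a TDP-43 cKO log2 fold change of -4.48 (SE 0.96, edgeR adjusted p = 0.0556). These values rest on 3, 5 and 8 UMIs in the TDP-43 cKO mice. With single mice left out, the TDP-43 cKO log2 fold change of Cyp19a1 in Leydig cells ranged from -5.55 to -3.13. In Sertoli cells, a known somatic source of aromatase in the immature testis, it measured 24.6, 47.7, 21.1 and 20.9 CPM in Control, 23.2 and 3.11 CPM in NELF-B cKO, and 0, 8.71 and 3.41 CPM in TDP-43 cKO mice (log2 fold change -2.92, SE 1.13, edgeR adjusted p = 0.116). The 0 of TDP-43 cKO replicate 1 is 0 UMIs of 18659657 in 579 cells, which allows up to 0.161 CPM.

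Barcodes of under 100 UMIs carried 76.5 to 198 CPM in Control, 118 and 26.2 CPM in NELF-B cKO, and 4.23, 87.4 and 75.8 CPM in TDP-43 cKO mice, with NELF-B cKO replicate 2 and TDP-43 cKO replicate 1 lowest and TDP-43 cKO replicates 2 and 3 close to Control replicates 1 and 3. The 6 P SC markers summed to 135 to 203 CPM in the Leydig cells of Control, 27.8 and 110 CPM in those of NELF-B cKO and 17.4 to 49.5 CPM in those of TDP-43 cKO mice. The upper limit that germ cell genes set on free RNA in Leydig cells was 4.00% to 9.43% of UMIs in Control, 3.09% to 5.11% in NELF-B cKO and 3.33% to 5.06% in TDP-43 cKO mice. In Leydig cells this limit came to 5.30 to 8.77 CPM of Cyp19a1 in Control mice, whose levels were all above it, and to 0.141, 4.18 and 3.83 CPM in TDP-43 cKO mice, whose levels were all under it. With free RNA subtracted, Cyp19a1 was called lower in TDP-43 cKO mice in Leydig cells (edgeR adjusted p = 0.00907) and in interstitial cells (log2 fold change -5.67, edgeR adjusted p = 0.0474), where the values without subtraction were not called. In these fits 1.51% of all genes tested were called in Leydig and 0.459% in interstitial cells. In Leydig cells the subtraction itself took all 3 TDP-43 cKO mice, which were under the limit, to 0. That call therefore adds nothing to the fit without subtraction, and its fold is not given. In interstitial cells 1 of 9 levels was at or under the limit, and the log2 fold change without subtraction was -3.14 (edgeR adjusted p = 0.139). The interstitial call comes from the same mice after the subtraction, so it is not a separate result.

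In Leydig cells, the cells of testosterone synthesis, edgeR called none of the 5 members in either cKO group, and DESeq2 called Cyp19a1 lower in TDP-43 cKO mice (log2 fold change -3.87, DESeq2 adjusted p = 0.000243). The 6 Leydig markers summed to 6276 to 9507 CPM in Control, 7116 and 9189 CPM in NELF-B cKO and 5158 to 6264 CPM in TDP-43 cKO mice, and none was at 0. Of all genes tested in Leydig cells, 0% were called by edgeR in NELF-B cKO and 0.154% in TDP-43 cKO mice. In the former, 1249 of 13655 genes had an unadjusted p under 0.05 and DESeq2 called 33. In the latter, 2570 had an unadjusted p under 0.05 and DESeq2 called 1287 (9.43%).

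Srd5a1 measured 258, 300, 241 and 291 CPM in the Leydig cells of Control mice, 228 and 214 CPM in NELF-B cKO, and 230, 222 and 273 CPM in TDP-43 cKO mice. Both NELF-B cKO mice and 2 of the 3 TDP-43 cKO mice lay under the Control range. The log2 fold change was -0.29 (SE 0.12, 95% interval -0.56 to -0.02) in NELF-B cKO and -0.17 (SE 0.11, 95% interval -0.41 to 0.07) in TDP-43 cKO mice, and neither passed over all genes (edgeR adjusted p = 0.541 and 0.471). Across cell types of the Control mice, the Leydig mean was 273 ± 27.7 CPM (SD, n = 4), and the means of the other types were at most 12.3 CPM, a value of myoid cells that rests on 0 to 4 UMIs per mouse. In Sertoli cells Srd5a1 measured 10.7, 10.4, 9.96 and 10.9 CPM in Control, 3.94 and 15.6 CPM in NELF-B cKO, and 14.6, 11.2 and 10.3 CPM in TDP-43 cKO mice. The NELF-B cKO mice lay on either side of the Control range, and the log2 fold changes were -0.02 and 0.21 (SE 0.46 and 0.39, edgeR adjusted p = 0.996 and 0.771). Of all genes tested in Sertoli cells, 0% were called by edgeR in NELF-B cKO mice, where 1440 had an unadjusted p under 0.05 and DESeq2 called 65, and 13.3% were called in TDP-43 cKO mice. The Sertoli cells lay in a cluster with a median of 2070 UMIs, which held 77.0% of those of Control, 73.5% of NELF-B cKO and 36.2% of TDP-43 cKO mice, and in one with a median of 34240 UMIs.

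In germ cells, Srd5a1 was low, with Control means from 3.17 CPM in early SC to 8.71 CPM in RS, and it was called in none of the types tested. In D SC it measured 5.03, 4.61, 4.90 and 6.08 CPM in Control, 6.99 CPM in NELF-B cKO replicate 1, and 8.86 and 10.8 CPM in TDP-43 cKO replicates 2 and 3. All 3 cKO values lay above the Control range, and the TDP-43 cKO log2 fold change was 0.87 (SE 0.34, edgeR adjusted p = 0.844).

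Akr1c14 measured 27.9, 24.4, 27.6 and 9.02 CPM in the Leydig cells of Control mice, 29.5 and 34.9 CPM in NELF-B cKO, and 27.4, 16.5 and 13.1 CPM in TDP-43 cKO mice. Both NELF-B cKO mice lay just above the Control range, and the TDP-43 cKO mice lay within it. Log2 fold changes were 0.49 (SE 0.37, edgeR adjusted p = 0.663) in NELF-B cKO and -0.23 (SE 0.34, edgeR adjusted p = 0.836) in TDP-43 cKO mice. Control replicate 4, the lowest, had 10 UMIs in 50 Leydig cells.

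In endothelial cells, which line blood vessels, Akr1c14 measured 50.8, 54.0 and 87.2 CPM in Control replicates 2 to 4, 108 and 132 CPM in NELF-B cKO, and 111, 57.6 and 32.7 CPM in TDP-43 cKO mice. Both NELF-B cKO values were above the Control range, and the TDP-43 cKO mice lay above, within and below it. Control replicate 1, left out of the fit with 9 endothelial cells, had 96.5 CPM on 9 UMIs, above the other Control mice. In NELF-B cKO mice the log2 fold change was 0.75 (SE 0.49, 95% interval -0.30 to 1.80) and in TDP-43 cKO mice 0.00244 (SE 0.43), with edgeR adjusted p of 0.994 and 1. These sums rest on 10 to 31 cells and 9 to 64 UMIs per mouse, which limits what could be detected. In interstitial cells, marked by Pdgfra, Dcn and Tcf21, Akr1c14 ranged from 1.37 to 22.5 CPM in Control and from 3.18 to 10.8 CPM in the cKO mice, and the groups overlapped. In the other cell types Akr1c14 had Control means of at most 0.667 CPM and was not tested.

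In Leydig cells, Sult1e1 had the largest log2 fold change of the members in the edgeR fits, apart from Cyp19a1 with its few UMIs. It measured 16.8, 11.5, 21.7 and 9.02 CPM in Control, 16.96 and 15.6 CPM in NELF-B cKO, and 9.46, 8.25 and 5.05 CPM in TDP-43 cKO mice. TDP-43 cKO replicates 2 and 3 lay below every Control mouse, and replicate 1 was just above Control replicate 4, whose value rests on 10 UMIs. The log2 fold change in TDP-43 cKO mice was -0.96 (SE 0.32, 95% interval -1.68 to -0.25), with an unadjusted p of 0.0132 that did not pass over all genes (edgeR adjusted p = 0.124). In NELF-B cKO mice it was 0.11 (SE 0.33, 95% interval -0.63 to 0.85, edgeR adjusted p = 0.950), and TDP-43 against NELF-B cKO differed by -1.07 (SE 0.35, edgeR adjusted p = 0.431). In SG, the next type, Sult1e1 ranged from 1.35 to 3.26 CPM in Control, from 0.851 to 1.81 CPM in NELF-B cKO and from 1.603 to 3.06 CPM in TDP-43 cKO mice. It was not tested in the other cell types, where its Control means were at most 0.293 CPM.

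**Figure D4:**
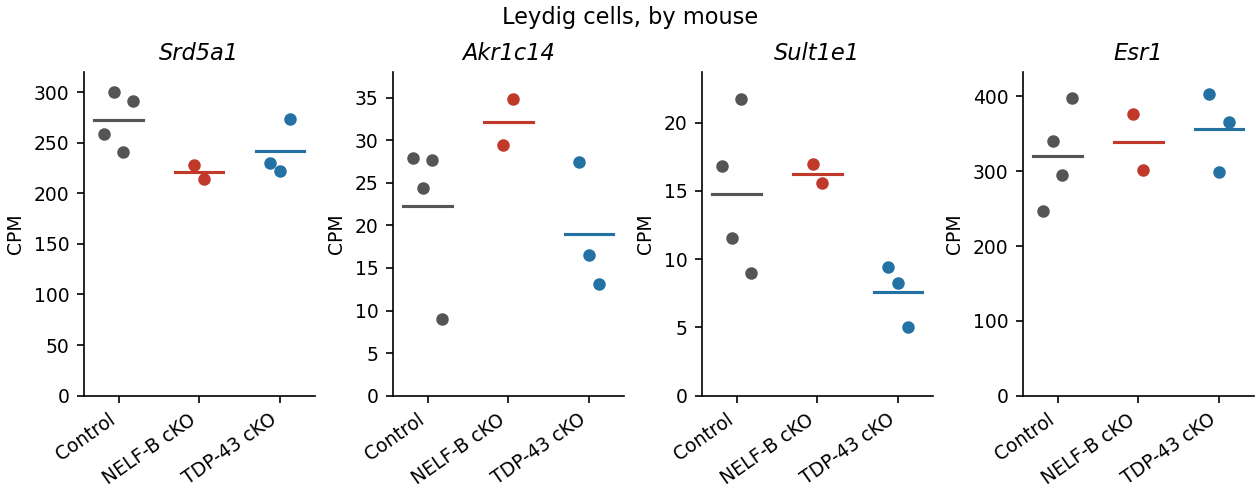
Srd5a1, Akr1c14, Sult1e1 and Esr1 in Leydig cells (CPM of summed UMIs), with 1 point per mouse and a line at the group mean. Each panel has its own axis from 0, and the TDP-43 cKO points of Sult1e1, from 5.05 to 9.46, lie with 2 of 3 under the Control range of 9.02 to 21.7 and the third just inside it.

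Esr1 measured 247, 340, 295 and 399 CPM in the Leydig cells of Control mice, 377 and 302 CPM in NELF-B cKO, and 404, 298 and 365 CPM in TDP-43 cKO mice. The groups overlapped, with log2 fold changes of 0.10 (SE 0.18, 95% interval -0.29 to 0.49) and 0.16 (SE 0.16, 95% interval -0.18 to 0.51), and edgeR adjusted p of 0.884 and 0.694. In interstitial cells Esr1 measured 63.8, 175, 136 and 151 CPM in Control, 173 and 169 CPM in NELF-B cKO, and 184, 151 and 166 CPM in TDP-43 cKO mice. Control replicate 1 stood below the other 8 mice, and the log2 fold changes were 0.39 (SE 0.29) and 0.41 (SE 0.26), with edgeR adjusted p of 0.944 and 0.447. Of all genes tested in interstitial cells, 0% were called in either cKO by edgeR, while 422 had an unadjusted p under 0.05 in NELF-B cKO and 2091 in TDP-43 cKO mice, and DESeq2 called 0 and 672.

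In SG, Esr1 measured 11.7, 25.1, 17.8 and 18.1 CPM in Control, 21.4 and 28.0 CPM in NELF-B cKO, and 35.0, 30.1 and 30.6 CPM in TDP-43 cKO mice. All 3 TDP-43 cKO mice lay above the Control range. The log2 fold change was 0.84 (SE 0.21, 95% interval 0.37 to 1.32), with an edgeR adjusted p of 0.0975, and DESeq2 called it at an adjusted p of 0.00615. In SG of TDP-43 cKO mice DESeq2 called 11.6% of all genes tested. The 3 interstitial markers, of cells with high Esr1, summed to 5.16 to 10.1 CPM in the SG of Control and 15.2 to 79.0 CPM in the SG of TDP-43 cKO mice, and barcodes of under 100 UMIs carried 2.21 to 8.33 CPM of Esr1 in Control and 18.3 to 66.2 CPM in TDP-43 cKO mice. Free RNA could give SG at most 0.468 to 1.37 CPM of Esr1 in Control and 1.91 to 3.65 CPM in TDP-43 cKO mice, and 0 of 9 levels were at or under that limit. With free RNA subtracted the log2 fold change was 0.63 (edgeR adjusted p = 0.125), at a cluster resolution of 1.2 it was 0.51 (0.110), and without the cKO cells in which the targeted gene was found it was 0.34 (0.426). With only the groups compared in the fit, edgeR called it (0.84, adjusted p = 0.0289). Such fits called 3.54% of the tests of all genes against Control, beside 1.35% in the fits reported. It was also called without NELF-B cKO replicate 1 or 2, at log2 fold changes of 0.84 and 0.87. These refits compare the same TDP-43 cKO and Control mice, so they are not separate results. In Sertoli cells, Esr1 ranged from 0.295 to 4.29 CPM in Control, measured 2.36 and 14.2 CPM in NELF-B cKO, and measured 11.6, 3.21 and 5.403 CPM in TDP-43 cKO mice, with log2 fold changes of 2.54 and 2.18 (SE 0.95 and 0.87, edgeR adjusted p = 0.455 and 0.126). In Sertoli cells the upper limit on free Esr1 RNA was 0.341 to 1.80 CPM in Control, 2.30 and 7.69 CPM in NELF-B cKO and 23.0, 2.35 and 4.07 CPM in TDP-43 cKO mice, and 2 of the 9 levels were at or under it.

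Of 65 possible tests of a member in a cell type, 30 passed the filter on low counts in each comparison. Cyp19a1 passed in 11 of 13 cell types, Srd5a1 in 8, Esr1 in 6, Akr1c14 in 3 and Sult1e1 in 2. edgeR called 0 of these 30 in NELF-B cKO against Control, 0 in TDP-43 cKO against Control and 0 in TDP-43 against NELF-B cKO mice, and of the tests of all genes over the 13 cell types it called 0.312%, 2.38% and 0.101%. At an unadjusted p under 0.05 there were 2, 14 and 4 of the 30, against 10.02%, 16.53% and 11.8% of the tests of all genes. Most of the 14 were the single gene Cyp19a1, in each type where it was tested except P SC. Outside late SC its levels there were almost all at or under those of barcodes of under 100 UMIs. The rest of the 14 were Srd5a1 in D SC, Sult1e1 in Leydig cells and Esr1 in SG and Sertoli cells. DESeq2 called 0, 5 and 0, with 5, 1 and 2 adjusted p left as NA, against 1.28%, 6.39% and 1.65% of the tests of all genes. The 5 were Cyp19a1 in SG, early SC, Leydig and MHC class II immune cells, lower in TDP-43 cKO mice, and Esr1 in SG, higher in them. In TDP-43 cKO mice DESeq2 called 11.6% of all genes tested in SG, 12.9% in early SC, 9.43% in Leydig and 7.83% in MHC class II immune cells.

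**Figure D5:**
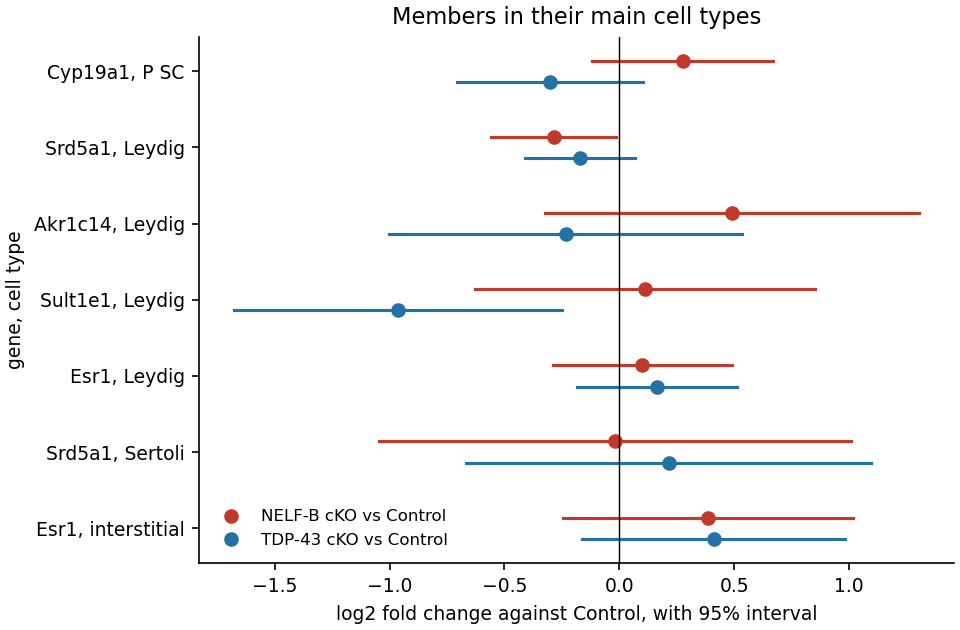
Log2 fold changes against Control with 95% intervals from the edgeR fits, for each member in its main cell types, with 1 point per cKO group. The intervals of Sult1e1 in Leydig cells of TDP-43 cKO mice (-1.68 to -0.25) and of Srd5a1 in Leydig cells of NELF-B cKO mice (-0.56 to -0.02) lie beside 0, and both missed the threshold after adjustment over all genes.

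Esr2, which encodes estrogen receptor β, ranged from 1.07 to 7.04 CPM in the Sertoli cells of Control and from 3.94 to 11.3 CPM in those of cKO mice.

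Hsd17b3, which makes testosterone from androstenedione, measured 165, 69.6, 114 and 118 CPM in the Leydig cells of Control, 191 and 109 CPM in NELF-B cKO, and 80.3, 83.0 and 79.7 CPM in TDP-43 cKO mice. The groups overlapped, with log2 fold changes of 0.35 (SE 0.29) and -0.53 (SE 0.27) and edgeR adjusted p of 0.694 and 0.326. Nr5a1, a nuclear receptor that activates steroidogenic genes, ranged from 82.0 to 91.6 CPM in the Leydig cells of Control, measured 66.7 and 74.0 CPM in NELF-B cKO, and measured 58.5, 78.8 and 69.6 CPM in TDP-43 cKO mice. All 5 cKO mice lay under the Control range, with log2 fold changes of -0.30 (SE 0.15) and -0.36 (SE 0.13) and edgeR adjusted p of 0.558 and 0.169. Por, the electron donor of aromatase and other microsomal P450 enzymes, ranged from 80.5 to 111 CPM in Control and from 60.7 to 120 CPM in cKO mice in Leydig cells, and the groups overlapped.

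Around the members, 64 genes in 8 lists covered testosterone synthesis, 17β- and 3α-hydroxysteroid conversion, 5α-reduction and further steps, estrogen conjugation and hydroxylation, receptors and steroid binding, receptor cofactors, regulators of aromatase, and androgen-regulated Sertoli genes. In each comparison with Control they gave 447 tests over the 13 cell types. In NELF-B cKO mice 4 were higher and 2 lower, all among the 44 tested in late SC, where 2.36% of all genes tested were called. In TDP-43 cKO mice 3 were higher and 1 lower, all among the 46 tested in Sertoli cells, where 13.3% of all genes tested were called, so that 4 of 46 is below that share. In P SC, 39 of the 64 genes were tested, in Leydig cells 44 and in interstitial cells 35, and edgeR called 0 in either cKO. At an unadjusted p under 0.05 there were 5 and 4 in P SC, 9 and 7 in Leydig cells and 4 and 5 in interstitial cells, in NELF-B and TDP-43 cKO mice. Over all genes tested the shares at that p were 12.1% and 13.2% in P SC, 9.15% and 18.8% in Leydig cells and 3.83% and 19.0% in interstitial cells. The median log2 fold change of the listed genes in Leydig cells was 0.17 in NELF-B cKO and -0.04 in TDP-43 cKO mice, beside -0.03 and -0.01 over all genes tested.

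The late SC of NELF-B cKO rest on 1 mouse, whose spread is taken as that of the other groups. In them Cyp17a1, which makes androgens from progestins, measured 8.397 CPM against 0.492 to 1.93 CPM in Control (log2 fold change 3.07, SE 0.48, edgeR adjusted p = 0.00512). Cyp11a1, the side-chain cleavage enzyme, rose by 2.75 on the log2 scale (SE 0.53, edgeR adjusted p = 0.0151), as did Hsd3b6 (SE 0.57, edgeR adjusted p = 0.0217), and Hsd3b1 rose by 2.08 (SE 0.50, edgeR adjusted p = 0.0436). These 4 are markers of Leydig cells. Barcodes of under 100 UMIs carried 196 CPM of Cyp17a1 in NELF-B cKO replicate 1 against 15.6 to 42.4 CPM in Control mice, and the summed Leydig markers measured 531 CPM there against 62.1 to 126 CPM. With free RNA subtracted, these 4 genes no longer passed the filter on low counts in late SC. Fkbp4, a cochaperone of steroid receptors, measured 602 CPM against 723 to 858 CPM in Control (log2 fold change -0.43, SE 0.10, edgeR adjusted p = 0.0393). With 1 of 6 mice left out in turn, Cyp17a1 and Cyp11a1 passed each time. Hsd3b6 missed the threshold without Control replicate 4 (edgeR adjusted p = 0.0806), as did Fkbp4 (0.116) and Hsd3b1 (0.146). Fkbp4 also missed it without TDP-43 cKO replicate 2 or 3, and Hsd3b1 without either of these or Control replicate 1 or 3. With every mouse of at least 1 late SC in the fit, the Fkbp4 log2 fold change was -0.0915 (edgeR adjusted p = 0.903).

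In Sertoli cells of TDP-43 cKO mice, Star, which brings cholesterol into mitochondria, measured 64.5, 40.7 and 51.1 CPM against 15.3 to 24.2 CPM in Control (log2 fold change 1.46, SE 0.28, edgeR adjusted p = 0.0316). Cyp11a1 measured 31.9, 5.66 and 57.2 CPM against 1.77 to 3.98 CPM (log2 fold change 3.52, SE 0.82, edgeR adjusted p = 0.0328). Hsd17b11, a short-chain dehydrogenase of the 17β-hydroxysteroid family, measured 64.4, 52.3 and 50.9 CPM against 33.2 to 40.1 CPM (log2 fold change 0.61, SE 0.18, edgeR adjusted p = 0.0499). Tsx, a gene of Sertoli cells listed as androgen-regulated, measured 397, 461 and 514 CPM against 527 to 838 CPM (log2 fold change -0.64, SE 0.17, edgeR adjusted p = 0.0423). The summed Leydig markers in Sertoli cells measured 18.3 to 45.9 CPM in Control, 125 and 477 CPM in NELF-B cKO, and 163, 58.6 and 152 CPM in TDP-43 cKO mice. In barcodes of under 100 UMIs they measured 62.1 to 126 CPM in Control, 531 and 1402 CPM in NELF-B cKO, and 1339, 109 and 205 CPM in TDP-43 cKO mice. With free RNA subtracted, none of the 4 passed, with a log2 fold change of 1.14 for Star (edgeR adjusted p = 0.0996), 0.53 for Hsd17b11 (0.215) and -0.73 for Tsx (0.124), in the same direction as before. The fold of Cyp11a1 (edgeR adjusted p = 0.235) is not given, since most Control mice were then at 0. Each of the 4 also missed the threshold when Control replicate 1, 3 or 4 or any TDP-43 cKO mouse was left out, with edgeR adjusted p of up to 0.104, 0.106, 0.208 and 0.166 in the same order, and Cyp11a1 and Hsd17b11 also without Control replicate 2. In TDP-43 cKO mice 63.8% of Sertoli cells lay in the cluster of more UMIs, against 23.0% in Control. Tsx was the leading gene by fold of the cluster of fewer UMIs. All 3 TDP-43 cKO mice had more Leydig marker RNA in Sertoli cells than any Control mouse. The part of the clusters in the 4 calls was not tested.

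Over the 12 named cell types of the Control mice, the genes whose pattern was most like each member were taken by Pearson correlation of log2(CPM + 1) among 16590 genes. For Cyp19a1 they were Gm21221 (0.961), Piwil1 (0.940) and 2010001A14Rik (0.932), and Piwil1, which acts in the piRNA pathway, was also a marker used to name P SC. For Srd5a1 they were Spink4 (0.963), Asgr1 (0.956) and Cyp4f14 (0.949), and for Sult1e1 Klhdc8a (0.978), Vstm2b (0.963) and Klhl14 (0.959). Akr1c14 was most like Plscr2 (0.994), Arhgef28 (0.973) and Ly6a (0.964), and Esr1 most like Elovl6 (0.920), Pcsk5 (0.910) and Igfbp6 (0.908). The 12 points come from the same 4 libraries, so these values describe likeness only.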

How the data were processed

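Counts of unique molecular identifiers (UMIs) per gene and barcode were used as deposited: the authors made these counts with Cell Ranger (7.0.0 in the methods, mkfastq 6.1.1, while the file headers name version 4) on the mm10 reference, without normalization or choice of cells. The submitters' processing notes also name Seurat 4.2.0 and DESeq2 1.36. Total UMIs per library bound the precision of each level.

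Barcodes needed over 1000 genes and less than 10% of UMIs from mitochondria. Counts were log-normalized in scanpy 1.11.5, and 3000 variable genes, without the members and pathway lists (markers kept), gave 40 principal components and clusters by leidenalg 0.10.2 (resolution 0.8, 20 neighbours). Clusters took the type of the highest marker score, with at least 3 markers 2-fold up. Limits added after the clusters had been seen left a cluster unnamed if another type reached 85% of its score, its median was under 2000 UMIs, or over 80% of its cells came from 1 mouse. Scrublet marked 173 of the named cells (0.671%) as doublets; these were kept, and leaving them out was an alternative.

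UMIs were summed per mouse and type (at least 10 cells) and tested in R 4.3.3 by edgeR 4.0.16, after filterByExpr and TMM scaling, by glmQLFit and glmQLFTest with genotype as the only term, over all mice of a type at once. P-values were adjusted by Benjamini-Hochberg over all genes of a type, and genes called under 0.05, two-sided; single mice are the replicates, and which Control mice were littermates of which cKO mice is not given in the sources used here. The scripts were tested on simulated data. Free RNA was read from barcodes of under 100 UMIs, and its upper limit in a cell type from genes of other lineages. Shares of cells with a UMI were also taken after thinning each cell to 2000 UMIs. For free RNA the floor of a count of 0 was 3 counts. Wilson intervals and floors cover counting error only, while intervals of log2 fold changes come from the edgeR fits between mice.

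The 5 members and the gene lists were chosen with earlier results of these data known. Named are the members in every type, the called genes of the lists (at most 5 per type and comparison, by p), Esr2, Hsd17b3, Por and Nr5a1, and the 3 genes most like each member among those with at least 10 CPM in a type. Alternatives were DESeq2 1.42.0, RLE scaling, no filter, a replicate block, other cell limits, a resolution of 1.2, free RNA subtracted, the study's removal of cKO germ cells in which the targeted gene was detected, its thresholds (0.01 for the adjusted p and 1 for the size of the log2 fold change), and each mouse left out. A result for 1 further named gene is not reported here.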

Additional observations from a re-analysis of the deposited data

Results flagged for a closer look

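Of 29 tests of a member in a cell type over the 4 Control mice, 2 had a mouse far from the others, and chance flags about 1 in 20. Cyp19a1 in RS measured 18.8, 19.7, 19.9 and 7.98 CPM, with Control replicate 4 lowest and a gap of 0.908 of the range. Cyp19a1 in Sertoli cells measured 24.6, 47.7, 21.1 and 20.9 CPM, with Control replicate 2 highest and a gap of 0.861 of the range, and the same mouse had the most Cyp19a1 in barcodes of under 100 UMIs, at 198 CPM.

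The other results lie in barcodes that no comparison used, and each was above every Control mouse. In barcodes of under 100 UMIs, Srd5a1 was at least 16.1 CPM in NELF-B cKO mice against at most 9.61 CPM in Control. Akr1c14 was at least 2.78 CPM in NELF-B cKO mice there against at most 0.828 CPM, and at least 0.659 CPM in their barcodes without a named type. The latter rests on 5 and 4 UMIs in NELF-B cKO replicates 1 and 2, against 2, 3, 1 and 0 UMIs in Control replicates 1 to 4. In barcodes of under 100 UMIs, Sult1e1 was at least 0.833 CPM in NELF-B cKO and 1.93 CPM in TDP-43 cKO mice against at most 0.641 CPM. These barcodes held 1476172 to 3988164 UMIs per mouse, so these Sult1e1 levels rest on few UMIs. In the same barcodes, Esr1 was at least 16.1 CPM in NELF-B cKO and 18.3 CPM in TDP-43 cKO mice against at most 8.33 CPM. It was at least 9.51 CPM in the barcodes of TDP-43 cKO mice without a named type.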

How the results depend on the processing

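Over the 14 comparisons of a member in its main cell types and 286 refits, 274 kept their direction and side of the threshold, 1 passed it and 11 turned direction. Cyp19a1 in P SC of NELF-B cKO ranged from -0.16 to 0.59 with single mice left out, passing only without NELF-B cKO replicate 2, and in TDP-43 cKO it was 0.0375 at a resolution of 1.2. With single mice left out, Sult1e1 in Leydig cells of NELF-B cKO ranged from -0.0378 to 0.35, Akr1c14 in TDP-43 cKO from -0.62 to 0.0161, Esr1 in NELF-B cKO from -0.0122 to 0.22, and Srd5a1 in Sertoli cells of NELF-B cKO from -1.43 to 0.64. Srd5a1 in Sertoli cells was 0.00999 in NELF-B cKO without a filter and -0.50 in TDP-43 cKO with free RNA subtracted. Outside the 14 comparisons, Cyp19a1 in late SC of NELF-B cKO turned to -0.00505 with mice of at least 1 cell. The cause was not tested.

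Calls of members in the other cell types, 0 in the fits reported, were 5 with DESeq2, 6 without a filter, 6 with only the groups compared, 1 at a resolution of 1.2, 2 with free RNA subtracted and 0 to 7 with single mice left out; between the cKO groups they were 2 without a filter and 0 to 2 with single mice left out. Calls of listed genes, 10 in the fits reported, were 36 with DESeq2, 41 without a filter, 18 with only the groups compared, 3 at a resolution of 1.2, 6 with free RNA subtracted, 1 at the study's thresholds and 2 to 22 with single mice left out. As a share of the tests, listed genes were called in 1.12% against 1.35% for all genes in the fits reported, 4.03% against 3.84% with DESeq2, 2.77% against 2.25% without a filter, 2.17% against 3.54% with only the groups compared, 0.373% against 1.08% at a resolution of 1.2 and 0.877% against 1.12% with free RNA subtracted. With single mice left out, the largest counts, 7 and 22, came from leaving out a NELF-B cKO mouse, with at most 1 left. There the share of all genes called was also the largest, and that of listed genes was below it. With 1 Control or TDP-43 cKO mouse left out, listed genes were called in 0.236% to 1.63% against 0.135% to 1.53% for all genes. The listed share was the higher in each of these fits, on 2 to 14 calls of listed genes. Without a Control mouse or TDP-43 cKO replicate 2 or 3, these calls included the Leydig markers Cyp17a1 and Cyp11a1 in late SC. Those rest on 1 NELF-B cKO mouse, and the shares are not read as a result about the lists. No such share is given at the study's thresholds or for the calls between the cKO groups, so those counts are not read as a result about the genes called. Whether replicate numbers pair the mice was not settled. Deviations of mice with the same number correlated from -0.64 to 0.48. Those of Control with NELF-B cKO mice were all positive, from 0.0706 to 0.484. Those of Control with TDP-43 cKO mice ran from -0.343 to 0.0371, and those of NELF-B with TDP-43 cKO mice from -0.637 to 0.0178. The 2 NELF-B cKO mice deviate from their mean by equal and opposite amounts, so their values are not separate. Mice of unlike numbers were not compared. With the replicate block, calls of members in the other cell types were 2, Cyp19a1 in late SC of NELF-B cKO (0.40, edgeR adjusted p = 0.0460) and in RS of TDP-43 cKO (-2.55, 0.0228), where 4.86% and 0.438% of all genes were called, calls of listed genes 5, and Sult1e1 in Leydig cells of NELF-B cKO was -0.0291.

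Groups of 1 to 4 mice limit the tests, with 1 NELF-B cKO mouse in late SC, D SC, RS and myoid cells, and P SC and endothelial cells were few in some mice. Cell types were rebuilt, and free RNA adds to low levels. Of all barcodes, 42.8% have none of the 12 named types, among them the 927 late SC.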
